A study of Mus musculus with 6 samples.

Results

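The genes of the cell's protein-folding stress responses were examined for binding of NF-YA in muscle stem cells (MuSCs): the sensors, transcription factors and chaperones of the unfolded protein response (UPR), the endoplasmic reticulum (ER), and the heat shock system. Members were chosen by gene symbol. They comprised 22 spelled-out symbols of the UPR, of ER chaperones, of ER-associated degradation and of the heat shock factors, and every gene whose symbol began with Dnaj, Pdia or the heat shock protein stems Hspa, Hspb, Hspd, Hspe, Hsph or Hsp followed by a digit. A peak belonged to the set if its annotated nearest gene carried such a symbol. This gave 67 of the 9056 NF-YA peaks, at 51 of the 5024 annotated genes. Of the 22 spelled-out symbols, 18 had a peak, and Atf6, Creld2, Derl2 and Trib3 had none under their own name.

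The series held 6 CUT&RUN libraries from wild type C57BL/6 mouse MuSCs that had been sorted, cultured and were activated and proliferating. An NF-YA antibody (Sc-17753, Santa Cruz) was used for 3 libraries and mouse IgG (12-371B, Millipore) for the other 3, and the study's methods describe the NF-YA samples as biological replicates. The labels name no ER stressor or heat treatment in either group. In CUT&RUN an antibody tethers a nuclease to its target in permeabilised cells, and the fragments released around the target are sequenced. The table used here gave values for the NF-YA libraries, and the IgG libraries were not analysed. Each value is the number of reads in a peak divided by the size factor of its library, called normalised reads below, and is not corrected for peak length unless stated. Replicates 1, 2 and 3 held about 476941, 226893 and 334586 reads in peaks, so replicate 1 had the most. The study's reporting summary nevertheless gives replicate 1 the fewest uniquely mapped reads and the shortest reads of the 3 libraries. The same summary lists more called peaks for replicate 1 than for replicates 2 and 3. In the order of the replicates, 1 read was worth 0.670, 1.48 and 1.02 normalised reads. The value of 3 reads, taken as the floor, was 2.01, 4.43 and 3.06 in the same order, and 0, 4 and 4 member peaks lay at or below it. With 1 group of 3 libraries no test between conditions was possible, and differences are set against the spread of these 3 libraries.

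NF-Y is a heterotrimer of NF-YA, NF-YB and NF-YC, and NF-YA supplies the contact with the CCAAT box. When unfolded proteins accumulate in the ER, the kinase PERK, the nuclease IRE1 and the membrane-bound factor ATF6 signal to the nucleus. Many promoters of ER chaperones carry the ER stress element (ERSE), in which a CCAAT box, occupied by NF-Y, is followed at a fixed distance by CCACG, to which ATF6 or XBP1 binds. The heat shock response of the cytosol uses another element, the heat shock element, which is recognised by the factor HSF1 and is built from repeats of GAA in alternating orientation.

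The ERSE was searched as CCAAT, 9 bases of any kind and CCACG on both strands of the 301 bp around each peak centre. It was found in 7 of the 67 member peaks (10.4%, 95% Wilson interval 5.15 to 20.0), against a background of 0.221%, or 20 of all 9056 peaks. The 7 peaks lay at Calr, Canx, Dnajc3, Hspa5, Pdia6, Syvn1 and Xbp1. Further ERSEs lay at the promoters of Creld2 and Hsp90b1, which belong to the same response but whose peaks were annotated to neighbouring genes. The 9 elements are shown because each joins a CCAAT box, the motif of NF-Y, to CCACG, the motif of ATF6 or XBP1. Several of these peaks held further CCAAT boxes, so which box was bound was not resolved. Binding of ATF6 and XBP1 was not measured. Capitals mark CCAAT and CCACG, each line reads 5′ to 3′ on the named strand of mm10, and the sequences were read from GRCm38.p6, the assembly behind mm10.
Calr, chr8:84847070-84847098, plus strand: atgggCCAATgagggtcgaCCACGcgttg
Canx, chr11:50325795-50325823, minus strand: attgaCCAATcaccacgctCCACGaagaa
Creld2, chr15:88819515-88819543, minus strand: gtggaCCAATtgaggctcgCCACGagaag
Dnajc3, chr14:118937822-118937850, plus strand: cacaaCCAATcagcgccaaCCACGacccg
Hsp90b1, chr10:86705633-86705661, minus strand: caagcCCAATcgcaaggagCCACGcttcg
Hspa5, chr2:34772020-34772048, plus strand: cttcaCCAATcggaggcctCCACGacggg
Pdia6, chr12:17266486-17266514, plus strand: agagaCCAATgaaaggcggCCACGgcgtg
Syvn1, chr19:6046527-6046555, plus strand: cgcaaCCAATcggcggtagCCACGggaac
Xbp1, chr11:5520901-5520929, plus strand: accggCCAATcgcggacggCCACGaccct

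The 9 bases between the boxes differed from gene to gene, and the elements at Calr and Creld2 were oriented against their gene. Measured from the nearest base of the element to the annotated transcription start site (TSS), the distances upstream were 26 bp at Syvn1, 36 bp at Pdia6, 108 bp at Creld2, 127 bp at Canx, 129 bp at Hsp90b1, 131 bp at Dnajc3 and 141 bp at Calr. At Hspa5 and Xbp1 the element lay 55 and 247 bp downstream of the annotated start. The RefSeq start of Hspa5 lies further 3′, and from it the element was 47 bp upstream, whereas the Xbp1 element was 265 bp downstream of the RefSeq start as well. From the RefSeq starts the distance upstream was also different at Pdia6 (80 bp), Dnajc3 (87 bp), Hsp90b1 (194 bp) and Calr (144 bp), and the same at Syvn1, Creld2 and Canx, so these distances depend on the annotation.

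In the compact second form, ERSE-II, the inverted CCAAT box and CCACG are 1 base apart. Within the 301 bp around the centre it was present in 2 member peaks and in 9 of all peaks. The members were Herpud1, an ER membrane protein of ER-associated degradation, and Hyou1, the ER homologue of HSP110. The Manf peak also held an ERSE-II, but outside this window, and whole peaks were not searched for this form. The heat shock element, searched on both strands as GAA, TTC and GAA with 2 bases of any kind between the blocks, was present in 3 member peak windows, at Hspa8, Hspb2 and Hspd1 (4.48%, interval 1.53 to 12.4), against a background of 0.375% of all peaks. The heat shock elements of Hspa8 lay inside the called peak, whereas those of Hspb2 and Hspd1 lay in the window but outside the called peak. The ERSE-II and the Hspa8 elements are printed for comparison with the ERSE, with the defining letters in capitals.
Herpud1 ERSE-II, chr8:94386372-94386392, plus strand: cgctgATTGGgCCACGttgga
Hyou1 ERSE-II, chr9:44379460-44379480, minus strand: accccATTGGtCCACGtagaa
Hspa8 heat shock element, chr9:40801058-40801080, plus strand: agcgtGAAagTTCcaGAAcgccg
Hspa8 heat shock element, chr9:40801216-40801238, minus strand: tcttaGAAccTTCcaGAAgggtg

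Several of the strongest member peaks had no ERSE but held more than 1 CCAAT box, as did peaks with an ERSE such as that of Hspa5. The stretch with 5 of the 9 boxes of the Eif2ak3 peak, the most in any member peak, and the box pairs of Pdia4 and Atf4 are shown with CCAAT, or ATTGG where the box is on the other strand, in capitals. The stretch of Hspa5 that lies upstream of its ERSE is shown for the same reason, since it holds 3 of the 5 boxes of the peak. Of the others, 1 lies 22 bp downstream of the annotated TSS and 1 in the element.
Eif2ak3, chr6:70844171-70844353, plus strand: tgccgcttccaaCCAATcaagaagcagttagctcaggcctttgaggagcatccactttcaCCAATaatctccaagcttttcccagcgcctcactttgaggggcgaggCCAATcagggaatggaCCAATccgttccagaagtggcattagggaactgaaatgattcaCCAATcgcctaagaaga
Hspa5, chr2:34771827-34771920, plus strand: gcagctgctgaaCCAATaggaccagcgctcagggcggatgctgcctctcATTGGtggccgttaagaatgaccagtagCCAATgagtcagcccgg
Pdia4, chr6:47813571-47813618, minus strand: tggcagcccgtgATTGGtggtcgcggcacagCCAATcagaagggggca
Atf4, chr15:80255055-80255124, plus strand: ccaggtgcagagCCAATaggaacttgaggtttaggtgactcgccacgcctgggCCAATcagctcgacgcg

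NF-YA peaks were common at these genes. GENCODE M21 lists 101 genes whose symbols meet the rule, and 51 of them had an annotated peak (50.5%, interval 40.9 to 60), against a background of 19.0% of 21951 protein-coding genes. A peak centre within 1000 bp of the annotated TSS, called a promoter peak, was found at 48 of the 101 genes (47.5%), against 14.8% of the protein-coding genes. Among the 67 member peaks, 54 were promoter peaks (80.6%, interval 69.6 to 88.3), against 41.4% of all peaks and 68.4% of the peaks that carry a gene symbol. By the annotation, 38 peak centres lay upstream of the TSS, 13 in a 5′ UTR, 11 in an intron, 3 downstream of the gene and 2 in a coding exon. A single peak was found at 39 genes, 8 genes had 2, and Dnajb5, Herpud1, Hspa1b and Xbp1 had 3. At 20 member peaks the TSS of another gene also lay within 1000 bp, so the peak could not be assigned to 1 gene.

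Member peaks were higher than the typical peak. Their median was 29, 35 and 31 normalised reads in replicates 1, 2 and 3, against 14, 16 and 15 for all peaks, a log2 ratio of 1.08 ± 0.05 (SD, n = 3). Among promoter peaks alone the log2 ratio was 0.69 ± 0.05, and per kb of peak it was 0.64 ± 0.11, so peak position and peak length moved with part of the difference. A mean of at least 100 normalised reads was reached by 20 of the 67 member peaks (29.9%), against 8.73% of all peaks. All 20 were promoter peaks, 37.0% of the 54, against 17.8% of all promoter peaks.

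The height of the signal differed between the branches of the set. With the highest peak taken for each gene, the 24 genes of the UPR, the ER chaperones and ER-associated degradation that had a peak showed medians of 110.5, 101.5 and 108 normalised reads in replicates 1, 2 and 3 (107 ± 4.65). The 27 heat shock, mitochondrial and remaining Dnaj genes showed medians of 23, 34 and 29 (28.7 ± 5.51), and the 4178 protein-coding genes with a peak showed 28, 28 and 30 (28.7 ± 1.15). Thus the ER stress genes stood above the other members in each library, by 1.91 ± 0.34 on the log2 scale, whereas the other members lay at the level of the typical bound gene. Per kb of peak the medians were 241 ± 15.0 for the ER stress genes, 117 ± 25 for the other members and 116 ± 4.45 for all genes, a log2 ratio of 1.06 ± 0.26 between the branches. A mean of at least 100 was reached by 14 of the 24 ER stress genes, by 6 of the 27 others and by 17.1% of all bound protein-coding genes. A peak was annotated to 24 of 37 ER stress genes of the rule (64.9%) and to 27 of 64 others (42.2%).

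**Figure D1:**
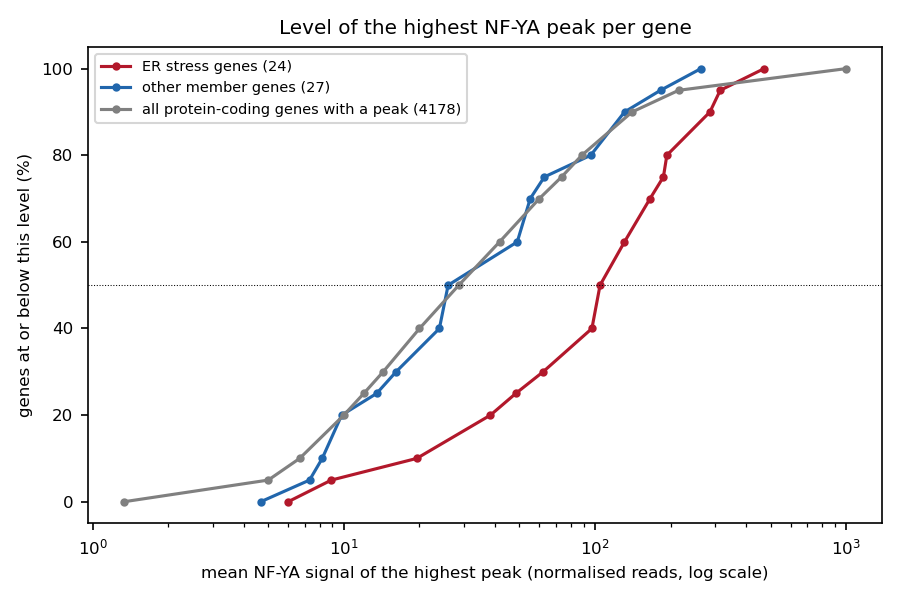
Share of genes (y axis, percent) whose highest NF-YA peak had a mean over 3 libraries at or below the level on the x axis (normalised reads per peak, log scale), for the 24 ER stress genes, the 27 other member genes and the 4178 protein-coding genes with a peak. The curve of the other members runs along that of all genes, and the curve of the ER stress genes lies to the right of both up to the highest levels.

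Among the UPR sensors and transcription factors, 6 of 8 genes had a peak, each with a promoter peak. Eif2ak3, which encodes PERK, had the highest value of the whole set, with 431, 502 and 479 normalised reads in replicates 1, 2 and 3 (471 ± 36.2, rank 31 of 9056). Its 855 bp peak (chr6:70843818-70844672) was centred 270 bp upstream of the TSS and held the 9 CCAAT boxes described above. Atf4, the transcription factor translated when PERK is active, had 111, 189 and 190 (163 ± 45.3), with replicate 1 below both others. Ddit3, which encodes the factor CHOP downstream of ATF4, had 124, 130 and 152 (135 ± 14.7). Atf6b, a relative of Atf6, had 112, 100 and 128 (113 ± 14) in its promoter peak and 7, 13 and 4 in an intronic peak. Of the PERK branch, Eif2ak3, Atf4 and Ddit3 were thus each bound at a mean of at least 100, whereas the target gene Trib3 had no annotated peak.

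The members Xbp1 and Ern1 of the IRE1 branch had lower values than Eif2ak3, Atf4 and Ddit3. Xbp1, whose mRNA is spliced by IRE1, had 56, 61 and 80 (65.7 ± 12.7) in the peak that carries the ERSE. Its other peaks had means of at most 7.67 normalised reads. Ern1, which encodes IRE1, had 7, 10 and 1, which is below the floor in replicate 3. Atf6 itself had no peak centre within 10000 bp of any of its starts, the nearest lying 91745 bp away, and for Trib3, a pseudokinase induced by the response, the nearest lay 11432 bp away. Signal outside the called peaks was not analysed here, so a weaker enrichment at Atf6 or Trib3 would not be seen.

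Of 23 genes for ER chaperones, their cochaperones and protein disulfide isomerases, 13 had a peak, all of them in the promoter, and 8 had a mean of at least 100. Pdia4, a disulfide isomerase, had 303, 337 and 305 (315 ± 19.1). Manf, an ER protein that is also secreted, had 256, 361 and 326 (314 ± 53.5). Their order could not be told, since Pdia4 was higher in 1 of 3 libraries. Canx and Calr, the lectin chaperones that retain glycoproteins in the ER, gave the most even values: 224, 222 and 219 for Canx (222 ± 2.52) and 193, 199 and 195 for Calr (196 ± 3.06). Hspa5, the ER member of the HSP70 family known as BiP, had 218, 148 and 191 (186 ± 35.3), with replicate 2 the lowest.

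The remaining ER chaperones spanned a wide range. Sdf2l1, a partner of ER DNAJ proteins, had 135, 189 and 166 (163 ± 27.1). Dnajc3, an ER cochaperone also known as an inhibitor of PERK, had 119, 112 and 91 (107 ± 14.6), and Hyou1 had 104, 100 and 101 (102 ± 2.08). Lower values were found for Pdia3 (51, 44 and 58), Dnajb9 (37, 27 and 42) and Pdia6 (29, 35 and 19), although the Pdia6 peak contained an ERSE. Dnajc1 and Hspa13 closed the list with means of 16.0 and 7.67. Among the member peaks an ERSE was therefore present over a range of levels, from 27.7 ± 8.08 at Pdia6 to 222 ± 2.52 at Canx.

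For some ER genes the promoter peak was annotated to a neighbour. The peak 252 bp from a start of Hsp90b1, which encodes the ER paralogue of HSP90, was assigned to Ttc41 and had 295, 257 and 291 (281 ± 20.9). The peak 199 bp from Creld2, an ER stress-induced gene, was assigned to Alg12 and had 131, 123 and 132 (129 ± 4.93). Dnajb11, a cochaperone of BiP, lay 170 bp from a peak assigned to Tbccd1 with 214, 188 and 208 (203 ± 13.6). These 3 peaks would rank among the higher ones of the group, and the ERSE sits in those of Hsp90b1 and Creld2. The other ER chaperone genes had no peak within 1000 bp, among them Dnajc10 (nearest at 269500 bp), Pdia5 (49192 bp) and Pdia2 (73474 bp).

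ER-associated degradation, by which misfolded proteins are moved to the cytosol and degraded, was represented by 5 of 6 genes. Sel1l and Syvn1, which encode the adaptor and the ubiquitin ligase of the HRD1 complex, had 208, 171 and 195 (191 ± 18.8) and 91, 103 and 94 (96.0 ± 6.24). Edem1, a lectin that selects glycoproteins, had 110, 81 and 115 (102 ± 18.4). Herpud1 had 78, 38 and 74 (63.3 ± 22) at its promoter and 23, 49 and 30 in a coding exon 5945 bp downstream, so that in replicate 2 the exonic value exceeded that of the promoter. Derl1 had 41, 35 and 45 (40.3 ± 5.03). Derl2 lay 217 bp from a peak assigned to Mis12 that had 306, 244 and 322 (291 ± 41.2).

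**Figure D2:**
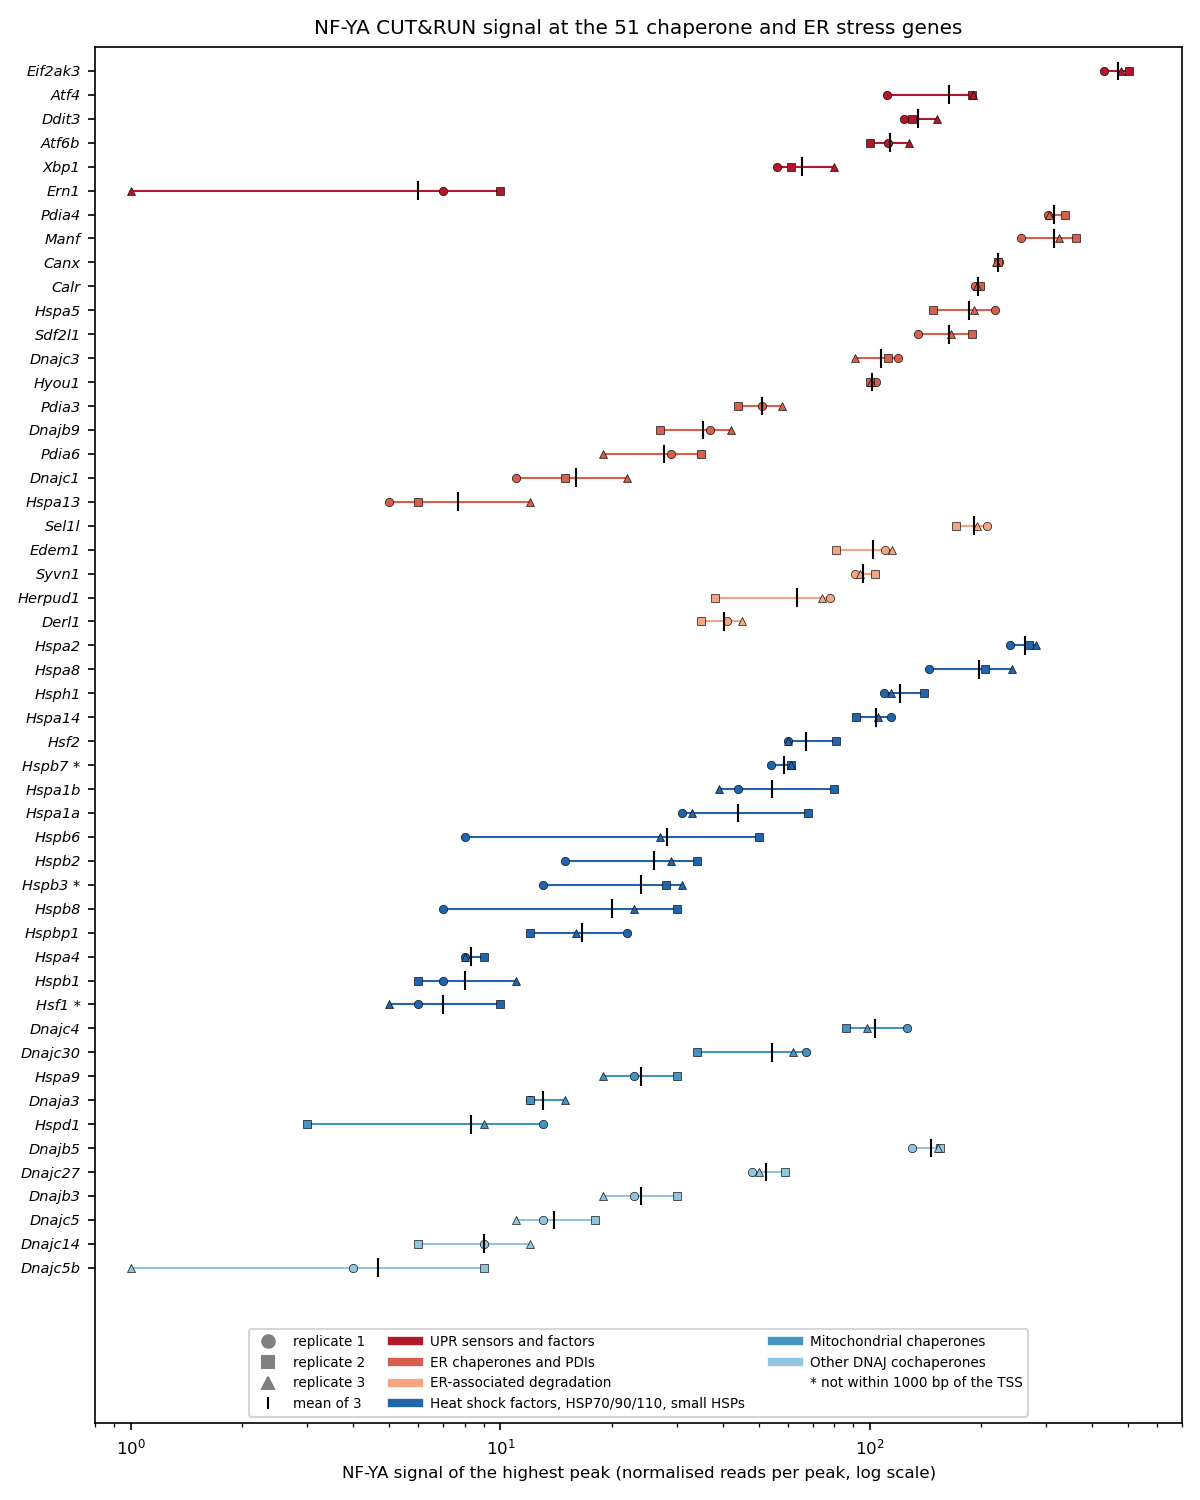
NF-YA signal of the highest peak of each of the 51 genes (x axis, normalised reads per peak, log scale), grouped by role. Symbols are the 3 libraries, horizontal lines their range and black ticks their mean, and an asterisk marks genes whose highest peak is not a promoter peak. ER stress genes in red tones reach from Ern1 (mean 6.00) to Eif2ak3 (471), and the symbols of Canx, Calr and Hyou1 almost coincide.

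In the heat shock branch, 16 of 25 genes for heat shock factors and for cytosolic or nuclear heat shock proteins had a peak, but 4 reached a mean of at least 100. Hspa2, an HSP70 gene best known from testis, had 240, 269 and 282 (264 ± 21.5). Hspa8, the constitutive cytosolic HSP70, had 145, 205 and 243 (198 ± 49.4), with replicate 1 the lowest, and both of its heat shock elements lay inside this peak. Hsph1, which encodes HSP110, had 109, 140 and 114 (121 ± 16.6). Hspa14 had 114, 92 and 105 (104 ± 11.1) in a peak whose centre also lay within 1000 bp of the start of Cdnf, a relative of Manf.

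The stress-inducible HSP70 pair was lower. Hspa1a had 31, 68 and 33 (44.0 ± 20.8), and the highest of 3 peaks at Hspa1b had 44, 80 and 39 (54.3 ± 22.4), so that replicate 2 was the highest at both genes. The 2 genes are near-identical copies, each with CCAAT 63 bp upstream of its start, and reads that mapped to more than 1 place had been removed. Their values are therefore uncertain, and the highest Hspa1b peak, centred 342 bp upstream, did not include that box. A lower Hspa1b peak, with 21, 19 and 19 normalised reads, did include it.

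The regulators of the response differed. Hsf2 had 60, 81 and 60 (67.0 ± 12.1) in its promoter peak, which held 4 CCAAT boxes. Hsf1, the main factor of the acute heat shock response, had 2 weak intronic peaks with 6, 10 and 5 and with 6, 4 and 5 normalised reads, 7250 and 8018 bp from its start. A further peak, 76 bp from another annotated start of Hsf1, was assigned to Bop1 and had 16, 7 and 19 (14 ± 6.24). The cytosolic HSP90 genes had none: the nearest peak centre was 95789 bp away for Hsp90aa1 and 28858 bp for Hsp90ab1. Among the peaks annotated to small heat shock proteins that of Hspb7 was the highest (54, 61 and 61), 4972 bp downstream of its start, and those of the other 5 genes had means from 8 to 28.3. A start of Hspb6 also lay 81 bp from a higher peak, assigned to Proser3, with 107, 129 and 94 (110 ± 17.7).

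Mitochondrial chaperones were bound at low levels, with 5 of 10 genes carrying a peak. Dnajc4 was the exception, with 126, 86 and 98 (103 ± 20.5). Hspd1 and Hspe1, which encode the chaperonin HSP60 and its partner HSP10, share a promoter with 1 peak of 13, 3 and 9 normalised reads, at or below the floor in replicate 2. Hspa9, the mitochondrial HSP70, had 23, 30 and 19. Dnaja3, a mitochondrial HSP40, had 2 peaks of its own with means of at most 13 and lay 85 bp from a peak assigned to Vasn with 37, 21 and 27. Of the 29 remaining Dnaj genes, 6 had a peak, which is near the background of 19.0% of protein-coding genes. Among them Dnajb5, a cytosolic HSP40, was the only one with a mean of at least 100. It had 130, 155 and 153 (146 ± 13.9) at the promoter, where 5 boxes lay, and 71, 100 and 101 (90.7 ± 17.0) in an intron 3997 bp downstream, the highest member peak outside a promoter. Dnajb1, the main HSP40 of the heat shock response, lay 144 bp from a peak assigned to Tecr with 82, 68 and 67.

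The order of the strongest members held in part. Eif2ak3 exceeded Pdia4 by 0.58 ± 0.07 on the log2 scale and Manf exceeded Hspa2 by 0.24 ± 0.17, both in 3 of 3 libraries, and Hspa2 exceeded Canx in 3 of 3. From Canx to Sdf2l1, which takes in Hspa8, Calr, Sel1l, Hspa5 and Atf4, no gene exceeded the next in all libraries. Per kb of peak the first place was not resolved either: Manf had 551 ± 93.8, Eif2ak3 550 ± 42.4 and Pdia4 533 ± 32.3 normalised reads per kb. The length of the Eif2ak3 peak thus accompanied its lead. Over all member peaks the median coefficient of variation between libraries was 21.6% (interval 17.3 to 30.2), against 25.4% for all peaks, and the promoter peaks of both sets were alike at 19.6%.

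A CCAAT box within 50 bp of the peak centre was present in 39 of the 67 member peaks (58.2%, interval 46.3 to 69.3), near the background of 52.9% of all peaks. For promoter peaks the shares were 61.1% and 64.6%. In windows shifted by 1000 bp to either side the members' share was 7.46% and 11.9%, so the box was centred on the peaks in this set as in the others. At least 2 boxes in 301 bp were held by 47.8% of the member peaks and 32% of all peaks, but in promoter peaks the shares were 48.1% (interval 35.4 to 61.1) and 43.8%. The members thus did not stand out among promoter peaks by having 1 box or several.

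Peaks with more boxes were higher. Member peaks without a box had a median mean of 7.67 normalised reads (13 peaks), those with 1 box 19 (22 peaks), those with 2 boxes 64.5 (14 peaks) and those with 3 or more 133.5 (18 peaks). The same order held over all peaks, with 8.67, 15.0, 33.3 and 102. Longer peaks have room for more boxes, and the median length of the member peaks was 120, 208.5, 378 and 478 bp in the same order, so box number and peak length cannot be told apart here. In the member promoter peaks 106 boxes were found, 58 on the strand of the gene and 48 on the other. Their median position relative to the TSS was -67.5 bp, that is upstream, and 66 of them (62.3%) lay within 200 bp upstream of it.

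**Figure D3:**
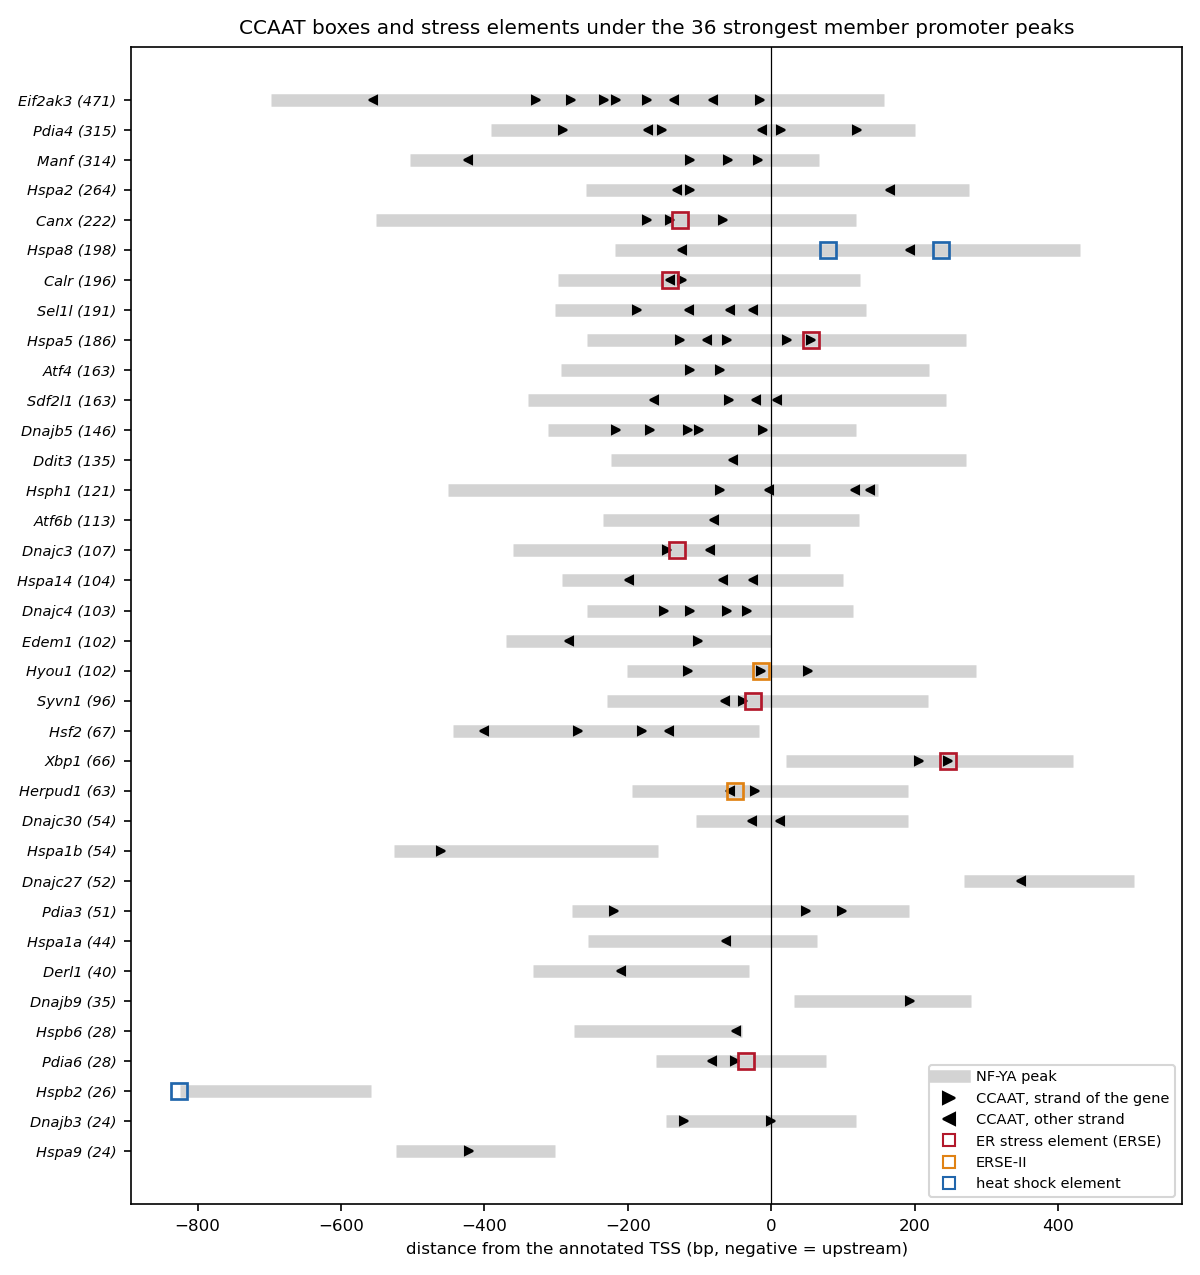
Positions of CCAAT boxes (triangles pointing along or against the gene) and stress elements (open squares) under the strongest promoter peak of the 36 highest member genes, by distance from the annotated TSS (x axis, bp). The heat shock element of Hspb2 lies beside its peak. Grey bars are the NF-YA peaks and the mean signal in normalised reads stands beside each name, and boxes gather just upstream of the start, most densely at Eif2ak3.

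Among promoter peaks the ERSE share was 13% for the members (7 of 54, interval 6.42 to 24.4), against 0.4% of all 3746 promoter peaks. All 7 were found among the 31 peaks of ER stress genes, and none among the 36 peaks of the other members. With 1 letter of CCACG allowed to differ, 14 member peaks (20.9%) and 237 of all peaks (2.62%) held the element. The 7 added members were Ddit3, Edem1, Herpud1, Hspb3, Hyou1, Pdia4 and Sel1l, of which 6 are ER stress genes. The GC box GGGCGG, a common promoter motif searched for comparison, was at background in promoter peaks, with 66.7% of the members and 68.0% of all. The UPR element TGACGTGG was found in 0 of 67 windows, which allows a share of up to 5.42% by the Wilson interval, and in 72 of all peaks. The element TGATGNAA, which ATF4 recognises with its partners, was found in 4 (5.97%) and in 269 of all peaks.

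Of the 20 peaks with an ERSE in the whole series, 11 were at genes of ER protein folding: the 7 members, Hsp90b1, Creld2 and the related genes Derl3 and Ero1b. Derl3, which acts in ER-associated degradation, had 95, 71 and 66 normalised reads in a peak with 2 elements. Ero1b, an oxidase that supplies disulfide bonds to the isomerases, had 18, 16 and 16. The other 9 peaks lay elsewhere, for example at Hnrnpa3 with 113, 71 and 87.

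**Figure D4:**
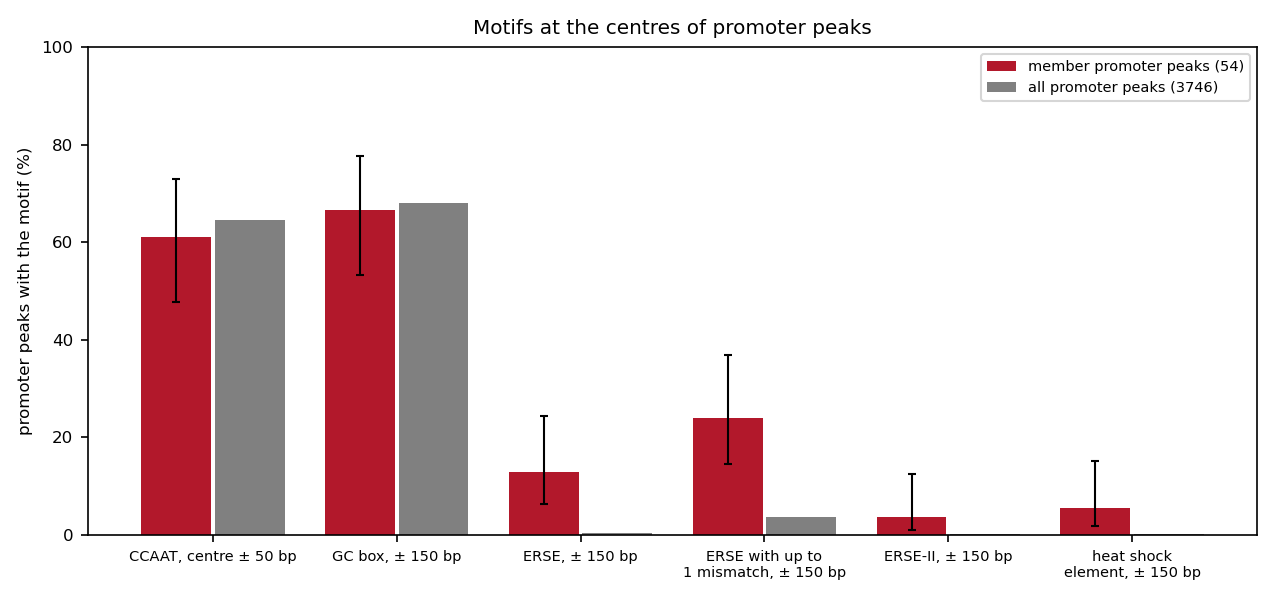
Share of promoter peaks (y axis, percent) with each motif within 50 bp (CCAAT) or 150 bp (others) of the peak centre, for 54 member promoter peaks in red and all 3746 promoter peaks in grey; black bars are 95% Wilson intervals of the member shares. The red and grey bars are of like height for CCAAT and the GC box, whereas the ERSE is at 13% in members and 0.4% in all promoter peaks.

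The search was also made in promoters, whether or not they had a peak. RefSeq promoters of GRCm38.p6, from 250 bp before to 50 bp after each start, were available for 82 of the 101 genes, and 8 of these genes held the ERSE: Calr, Canx, Creld2, Dnajc3, Hsp90b1, Hspa5, Pdia6 and Syvn1. An NF-YA peak overlapped the promoter of 8 of these 8, against 16 of the 37 genes with an ERSE among all 27025 genes (43.2%), a count that includes the 8. Of the 43 genes of the rule with a CCAAT box in the promoter, 34 had an overlapping peak (79.1%), against 23.4% of all genes with a box. When promoters were taken whether or not they had a box, the shares were 51.2% of the genes of the rule and 12.1% of all genes.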

How the data were processed

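CUT&RUN was performed on cultured wild type MuSCs with 3 NF-YA and 3 IgG libraries. According to the methods and processing notes, reads were trimmed with Trimmomatic 0.39, aligned with STAR 2.7.9a to mm10 and deduplicated with Picard 2.25.5, and multi-mapping reads were removed. Peaks were called with MACS against IgG and unified. The authors counted reads with featureCounts, normalised them with DESeq2 1.30.0 and annotated peaks to the nearest gene within 10000 bp of a TSS. The deposited values are a score: reads per peak divided by the library's size factor and rounded by the authors. The scaling hides a change shared by all peaks, and peaks were selected on the libraries reported.

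The worth of 1 read was estimated by maximum likelihood from the gaps in the rounded values. On 6 simulated libraries of 9056 peaks the error was at most 0.0228%. Peak starts were read as counted from 0 and are printed counted from 1. Sequence came from GRCm38.p6, gene positions from GENCODE M21 and promoters from RefSeq. Motifs were counted on both strands with Python 3.11.15, pysam 0.24.0 and pandas 2.3.3. Intervals are 95% Wilson intervals, or for a median those of its order statistics, and cover counting of peaks only. No test was made, since a single group had values and peaks are not replicates.

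The members, roles and related lists were chosen with earlier results of these data known. Values per library were given for the spelled-out symbols, the Pdia genes, the 10 highest peaks, the peaks with an ERSE and the highest peak of each role.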

Additional observations from a re-analysis of the deposited data

How the results depend on the processing

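Of 27 alternatives for 6 results, 19 left the value within its interval or spread and 8 moved it, none of them to the opposite direction. Counted within 5000 bp of the TSS, 92.5% of the member peaks were promoter peaks. The log2 ratio of member to all peaks became 0.64 per kb of peak, 0.69 in promoter peaks and 1.22 at a mean of at least 10, and ranged from 1.05 to 1.09 with 1 replicate left out. The CCAAT share was 74.6% with 100 bp to each side and 32.8% for the longer consensus, which demands further letters around the box. The number of member peaks with an ERSE was 14 with 1 base of CCACG allowed to differ. The median coefficient of variation ranged from 13.5% to 21.8% with 1 replicate left out, and the lowest value was that without replicate 2, the library with the fewest reads in peaks. The cause of these shifts was not tested beyond the construction of each alternative. Searching whole peaks, and counting peaks near any start of a gene, were alternatives chosen after seeing the data. Depth limited peaks of a few reads, such as those of Ern1 and Hspd1. No paired analysis was possible because no test was made and 1 group had values.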

Other observations

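Folding genes outside the rule were also looked up. Of 44 related genes of ER protein folding and quality control, 23 had an annotated peak (52.3%, interval 37.9 to 66.2), against 19.0% of protein-coding genes. P4hb, a disulfide isomerase named outside the Pdia series, had 350, 294 and 303 normalised reads (316 ± 30.1), and Vcp, the ATPase that extracts proteins for degradation, had 232, 242 and 284 (253 ± 27.6). Creb3l2, a transcription factor held in the ER membrane, had 173, 186 and 172, and Os9, an ER lectin, had 158, 173 and 181. Of 32 related folding genes of the cytosol and mitochondria, 9 had a peak (28.1%, interval 15.6 to 45.4). Stip1, the adaptor between HSP70 and HSP90, had 496, 480 and 508 (495 ± 14), a mean above that of any member, although Eif2ak3 was higher in replicate 2. The translocon genes Sec61a1, Sec61b and Sec61g had no annotated peak.

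The small heat shock proteins, chosen after their values were seen, differed between libraries. Replicate 1 was the lowest in 5 of the 6 peaks annotated to Hspb genes, against 40.3% of the member peaks and 30.3% of all peaks. At a mean of at least 10 normalised reads these shares were 50% of the member peaks and 38.7% of all peaks. In 3 of them replicate 1 was at most 50% of both other values: Hspb6 with 8, 50 and 27, Hspb8 with 7, 30 and 23, and Hspb3 with 13, 28 and 31. This was the case in 5.97% of the member peaks, these included, and in 4.00% of all peaks. Replicate 1 had the most reads in peaks, but by the study's reporting summary it had fewer uniquely mapped reads and shorter reads than both other libraries. Whether this set differs between cultures was not tested, and a difference between cultures cannot be told apart from this difference in sequencing.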
